A study of Homo sapiens with 24 samples.

Results

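The transcripts of 4 secreted proteins tied to mitochondrial stress, GDF15, FGF21, STC1 and STC2, were followed through gradual and chronic loss of mitochondrial DNA (mtDNA). They were measured by the probe sets whose single gene symbol in the array annotation was one of these names, which gave 9 probe sets of 4 genes, out of 41091 probe sets of 19775 genes with 1 symbol. RNA was measured on 24 Affymetrix HG-U133 Plus 2.0 arrays, 3 for each of 8 groups. In HEK293 cells, a human embryonic kidney line, a dominant-negative mtDNA polymerase (DN-POLG) was switched on by doxycycline, and cells were taken at days 0, 3, 6 and 9, with day 0 not induced. A derivative that carried the same DN-POLG transgene and also expressed AOX/NDI1, an alternative oxidase and an NADH dehydrogenase that keep electrons moving without the mtDNA-encoded complexes, was taken at day 9 and at day 0. The last pair of groups came from the osteosarcoma line 143B: rho0 cells, chronically depleted of mtDNA with ethidium bromide, and rho+ cells, which keep it. All cells grew in high-glucose medium with uridine and pyruvate, which spare cells some of the needs that respiration serves. Cells pooled from several flasks made up each day 6 and day 9 culture, so such a replicate is an average of flasks.

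GDF15 is a distant member of the TGF-beta family that is released by stressed cells and acts on the hindbrain through the receptor GFRAL with its co-receptor RET. FGF21 is an endocrine fibroblast growth factor that needs beta-Klotho (KLB) beside an FGF receptor and is released mainly by liver, and by muscle when mitochondria fail. Both genes are known targets of ATF4, the transcription factor whose translation goes up when the initiation factor eIF2alpha is phosphorylated, and both are used as blood markers of mitochondrial disease. STC1 and STC2, the stanniocalcins, are secreted glycoproteins that inhibit the protease PAPP-A and so hold insulin-like growth factors on their binding proteins. STC2 is a further ATF4 target, and STC1 is known as a gene that answers to hypoxia.

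RefSeq promoter windows, 250 bases before to 50 bases after the start site on build GRCh38.p14, were matched for GDF15, FGF21 and STC2 among 35116 windows; STC1 was not matched. They are shown because the transcripts of GDF15 and STC2 changed after mtDNA depletion while that of FGF21 stayed near the array background. GDF15 lies on chr19:18385908-18386207 (plus strand), FGF21 on chr19:48755274-48755573 (plus strand) and STC2 on chr5:173328365-173328664 (minus strand, given 5′ to 3′ along the gene). Capitals mark the only match to any of 3 motifs that were searched on both strands.
GDF15: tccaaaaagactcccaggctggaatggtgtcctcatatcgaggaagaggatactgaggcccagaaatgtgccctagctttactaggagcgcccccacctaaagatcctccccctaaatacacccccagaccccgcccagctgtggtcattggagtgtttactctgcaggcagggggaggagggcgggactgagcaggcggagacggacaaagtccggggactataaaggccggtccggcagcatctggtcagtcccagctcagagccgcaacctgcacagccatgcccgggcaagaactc
FGF21: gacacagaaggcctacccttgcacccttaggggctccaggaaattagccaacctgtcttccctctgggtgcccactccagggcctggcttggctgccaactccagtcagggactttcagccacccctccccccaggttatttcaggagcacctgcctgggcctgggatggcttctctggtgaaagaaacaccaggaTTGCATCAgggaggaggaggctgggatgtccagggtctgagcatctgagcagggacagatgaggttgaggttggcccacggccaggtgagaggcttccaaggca
STC2: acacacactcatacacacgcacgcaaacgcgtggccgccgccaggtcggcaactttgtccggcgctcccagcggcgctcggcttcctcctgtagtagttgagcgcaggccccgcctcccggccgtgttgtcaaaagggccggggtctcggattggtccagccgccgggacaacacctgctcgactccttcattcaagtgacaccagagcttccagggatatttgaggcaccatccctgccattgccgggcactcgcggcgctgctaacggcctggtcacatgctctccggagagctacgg
The match in FGF21 is TTGCATCA, at bases -54 to -47 from the start site, which on the other strand reads as TGATGNAA, the element bound by ATF4 with a C/EBP partner. This motif occurs in 3.62% of all windows. The ACGTG form of the hypoxia core, present in 21.4% of all windows, and the cyclic AMP element TGACGT, present in 7.98%, had no match in the 3 windows shown. Other forms of the hypoxia core were not searched, and the form GCGTG can be read in the STC2 window. The STC2 window holds 28 CpG pairs, the GDF15 window 11 and the FGF21 window 1, beside a median of 14 over all windows.

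The labels were checked on the targeted process first. The POLG probe set 217635_s_at, which can read both the transgene and the gene itself, had a mean signal of 3947 ± 992 at day 9 and 336 ± 74.8 at day 0 of DN-POLG (SD, n = 3 each), and 2317 ± 1799 at day 9 and 246 ± 42.6 at day 0 of AOX/NDI1 (SD, n = 3 each). The other tested POLG probe set moved little, with a log2 difference of 0.23 in DN-POLG and 0.38 in AOX/NDI1. In each of these lines 1 of the 2 was called higher. In HEK293 cells 3 of 7 mtDNA transcripts tested, ATP6, COX2 and ND6, were called lower at day 9 than at day 0 in DN-POLG and likewise in AOX/NDI1, while COX1 had log2 differences of -0.16 and 0.03. All 7 were lower in rho0 than in rho+ cells, with no overlap between arrays in COX1, which read 29.5 to 47.4 in rho0 and 28557 to 32355 in rho+. LIN28B, an embryonic gene that marks HEK293 cells, averaged 3431 to 4731 over the 6 HEK293 groups and 446 and 831 in rho0 and rho+ cells, whereas NEFM was near background in all 18 HEK293 arrays. In 143B cells the bone matrix gene SPARC averaged 10848 in rho0 and 6598 in rho+ (200665_s_at), while COL1A2 and THY1 were near background in 4 and 5 of the 6 arrays. All arrays had a trimmed mean signal of 500.05 to 500.08, and the mean correlation of an array with its own group was 0.888 to 0.983, lowest for replicate 1 of DN-POLG day 6 and replicate 3 of rho0 (0.891). The 3′ to 5′ signal ratio of ACTB, a sign of RNA integrity, was 1.05 to 1.81 in HEK293 arrays apart from 8.92 in replicate 1 of DN-POLG day 6, and it was 5.53 to 8.12 in rho0 and 10.4 to 17.1 in rho+ arrays.

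Signals were placed against 135 probe sets of olfactory receptor genes, which neither line is known to use. A signal at or below the 95th percentile of these on the same array, which was 63.9 to 138 in HEK293 and 29.0 to 68.1 in 143B arrays, was called near background. By this measure FGF21 was near background in all 8 groups, STC1 was near background in HEK293 and far above it in 143B cells, and STC2 was above background in every array. GDF15 was above background in all 18 HEK293 arrays on 221577_x_at, its only such probe set there, and in all 6 143B arrays on 229868_s_at. With the 90th percentile as the limit the number of arrays near background fell only for STC1 204595_s_at in HEK293 cells (10 in place of 16 of 18) and, in 143B cells, for FGF21 (3 in place of 6 of 6) and GDF15 221576_at (4 in place of 6 of 6).

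**Figure D1:**
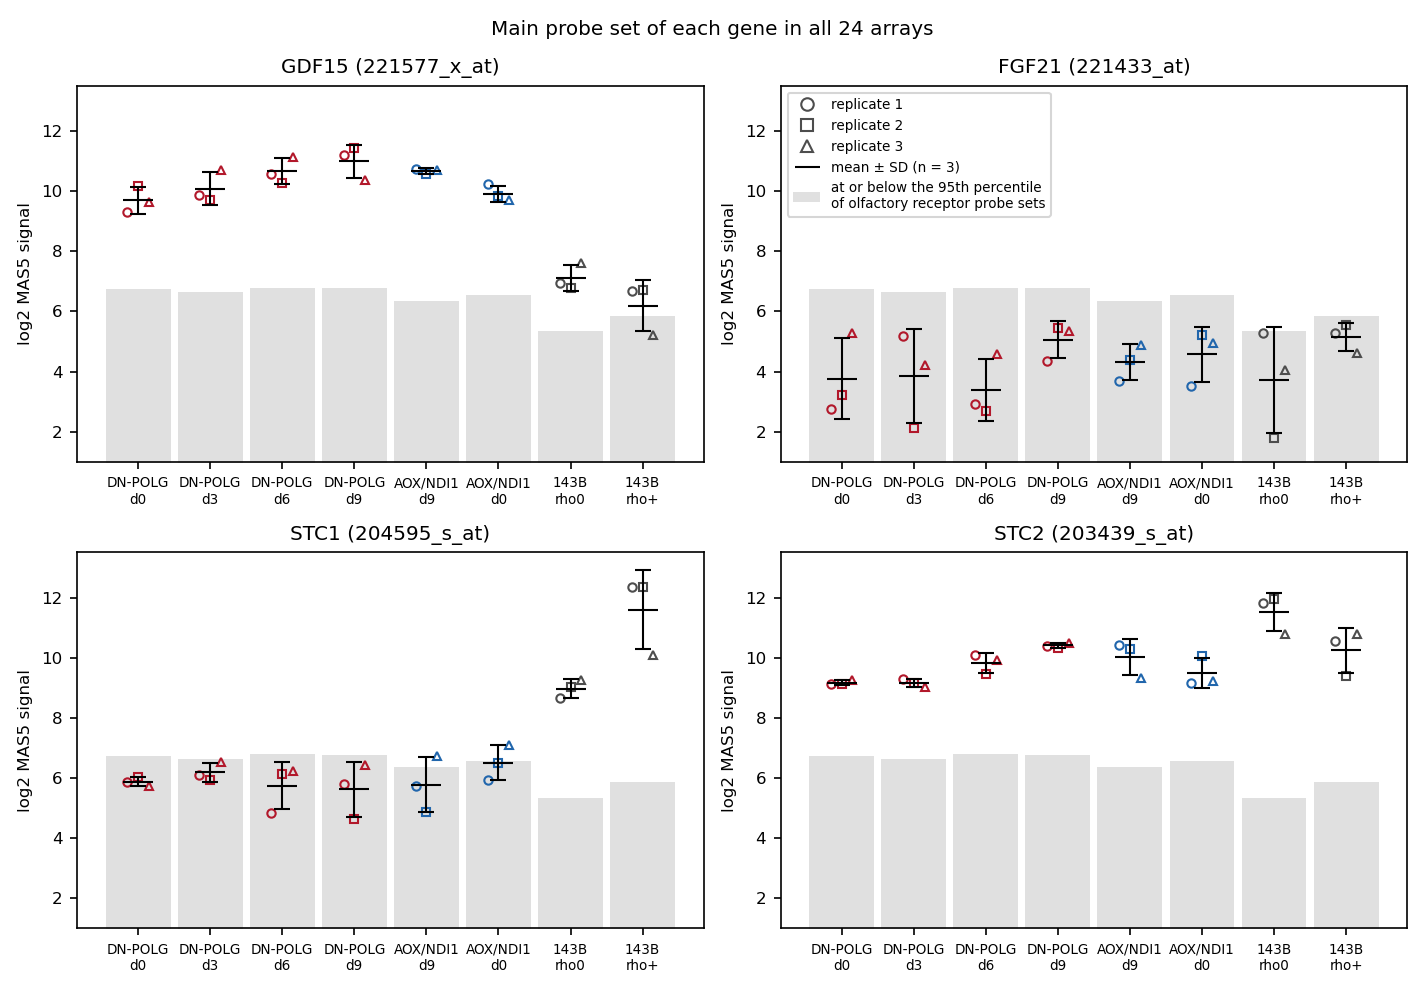
Log2 MAS5 signal of the main probe set of GDF15, FGF21, STC1 and STC2 (vertical axes) in the 8 groups (horizontal axes), with 1 open symbol per array and the mean ± SD of 3 arrays in black. The grey area ends at the mean over the 3 arrays of the 95th percentile of olfactory receptor probe sets; FGF21 lies inside it in every group, STC1 is far above it in 143B cells, and STC2 is above it throughout.

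GDF15 transcript was higher after 9 days of DN-POLG induction on 221577_x_at, its only probe set above background in HEK293 cells. The day 9 level was about 2.4 times that of uninduced cells, and the increase was gradual in the group means. Signals on 221577_x_at, in replicates 1, 2 and 3, were 630.3, 1164 and 792 at day 0, 932, 831 and 1672 at day 3, 1538, 1250.5 and 2277 at day 6, and 2337, 2760.2 and 1321 at day 9. Every day 9 and day 6 array was above every day 0 array, while day 3 arrays overlapped both neighbours in time. The log2 difference from day 0 was 0.39 ± 0.33 at day 3 (SE; adjusted p = 1.00 in limma), 0.97 ± 0.33 at day 6 (adjusted p = 0.159) and 1.29 ± 0.33 at day 9 (adjusted p = 0.0233, 95% interval 0.59 to 2.00, a fold of 2.45). These adjusted p-values came from the limma fit over all 23132 probe sets tested in HEK293 cells, and only day 9 passed the threshold of 0.05. The other GDF15 probe sets, near background, entered only the fit with no filter on low signals. Their log2 differences at day 9 were 1.62 ± 0.97 on 221576_at (limma adjusted p = 0.505) and 0.48 ± 1.13 on 229868_s_at (0.916). The comparisons of days 3, 6 and 9 share the same day 0 arrays. In RNA of whole cultures, more cells that make the transcript and more transcript per cell cannot be told apart.

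The day 9 call for GDF15 depended on the arrays and probe sets in the fit. The adjusted p was 0.0580 in the paired fit with a replicate block, 0.0702 with no filter on low signals, 0.127 with only the 6 arrays compared in the model, and 0.0985, 0.0809, 0.107 and 0.0610 without replicate 1 of day 0, replicate 1 of day 9, replicate 2 of day 9 and replicate 3 of day 0 of DN-POLG. Each replicate is described as 1 culture round from a single starter culture, which ties the days of DN-POLG together, but the sources do not tie the array numbers to the rounds.

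In AOX/NDI1 cells GDF15 signals were 1706, 1506 and 1663 at day 9 and 1197, 908 and 841 at day 0. All day 9 arrays were above all day 0 arrays, with the narrowest spread of any HEK293 group at day 9 (SD 0.10 on the log2 scale). The log2 difference was 0.74 ± 0.33 (SE; limma adjusted p = 0.166), and it passed when array weights were used (adjusted p = 0.0136) or when only the 6 AOX/NDI1 arrays were in the model (0.0169). The day 9 response of AOX/NDI1 minus that of DN-POLG was -0.55 on the log2 scale, with a 95% interval of -1.55 to 0.45 and a limma adjusted p of 0.999. AOX/NDI1 and DN-POLG cells overlapped at day 9 (log2 difference -0.33 ± 0.33) and at day 0 (0.22 ± 0.33).

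In 143B cells the same probe set read 124, 109 and 196 in rho0 and 102, 104 and 37.1 in rho+, and replicate 3 of rho+ was near background. The rho0 arrays were all above the rho+ arrays, but the lowest rho0 and highest rho+ signals lay close together, and the log2 difference of 0.92 ± 0.44 did not pass (limma adjusted p = 0.220). The other probe set, 229868_s_at, gave 423, 380.2 and 873 in rho0 and 109, 410 and 186 in rho+, with overlap and a log2 difference of 1.36 ± 0.51 (adjusted p = 0.134). In the order of the 8 group means on 221577_x_at, DN-POLG day 9, DN-POLG day 6, AOX/NDI1 day 9, DN-POLG day 3, AOX/NDI1 day 0 and DN-POLG day 0 overlapped from neighbour to neighbour, and rho0 and then rho+ cells lay apart below them. On 229868_s_at the 2 lines stood the other way round. There rho0 (mean log2 signal 9.02) and rho+ (7.66) lay apart above the HEK293 groups (3.88 to 5.75), which were near background. Which line had more GDF15 transcript thus depended on the probe set.

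FGF21, the other hormone of the pair, was near background on all 24 arrays of its only probe set, 221433_at. Signals at day 9 of DN-POLG were 20.3, 44.2 and 40.7, against 6.81, 9.28 and 39.2 at day 0. Days 3 and 6 lay between 4.41 and 36.7. Those of AOX/NDI1 were 12.8, 20.9 and 29.4 at day 9 and 11.6, 37.2 and 31.3 at day 0, and 143B cells read 38.6, 3.48 and 16.7 in rho0 and 38.8, 47.1 and 24.6 in rho+. The groups overlapped in each of these comparisons. FGF21 was below the filter on low signals, so it entered only the fit without the filter, where its log2 difference was 1.29 ± 0.82 at day 9 of DN-POLG (limma adjusted p = 0.538), -0.26 ± 0.82 at day 9 of AOX/NDI1 (0.921) and -1.44 ± 0.87 in rho0 against rho+ (0.409). At this signal level a change of FGF21 was not detectable: the 95% interval ran from -0.47 to 3.06 at day 9 of DN-POLG and from -3.56 to 0.67 in rho0 cells.

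STC2, the stanniocalcin that ATF4 is known to drive, changed at day 9 of DN-POLG on both of its probe sets, in opposite directions. On 203439_s_at, the main one, signals were 554, 565 and 618 at day 0, 623, 569 and 522 at day 3, 1102, 701 and 975 at day 6 and 1348, 1287 and 1450.1 at day 9. The day 6 arrays were all above the day 3 and day 0 arrays, and the day 9 arrays were all above those of day 6. The log2 difference from day 0 was -0.02 ± 0.29 at day 3 (limma adjusted p = 1.00), 0.65 ± 0.29 at day 6 (0.276) and 1.23 ± 0.29 at day 9 (adjusted p = 0.0135, a fold of 2.35).

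The second probe set, 203438_at, read 467, 743 and 486 at day 0, 353, 375 and 451 at day 3, 498, 379 and 373 at day 6 and 320.0, 301 and 275 at day 9. Here the day 9 arrays were all below those of the 3 earlier days. The log2 difference from day 0 was -0.50 ± 0.22 at day 3 (limma adjusted p = 1.00), -0.42 ± 0.22 at day 6 (0.359) and -0.89 ± 0.22 at day 9 (adjusted p = 0.0175, 1.85-fold lower). Averaged into 1 value per gene, the 2 probe sets left STC2 with a log2 difference of 0.17 and a limma adjusted p of 0.708, so the direction given for STC2 holds for a probe set and not for the gene. The array annotation does not tell which stretch of the transcript each probe set reads. The day 9 call on 203439_s_at was lost without replicate 3 of day 9 of DN-POLG (adjusted p = 0.0557), and that on 203438_at was lost in the paired fit with a replicate block (0.0554), with no signal filter (0.0561), with only the 6 arrays compared (0.145), and without replicate 2 of day 0 (0.0563), replicate 2 of day 9 (0.0518) or replicate 3 of day 9 (0.0740).

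**Figure D2:**
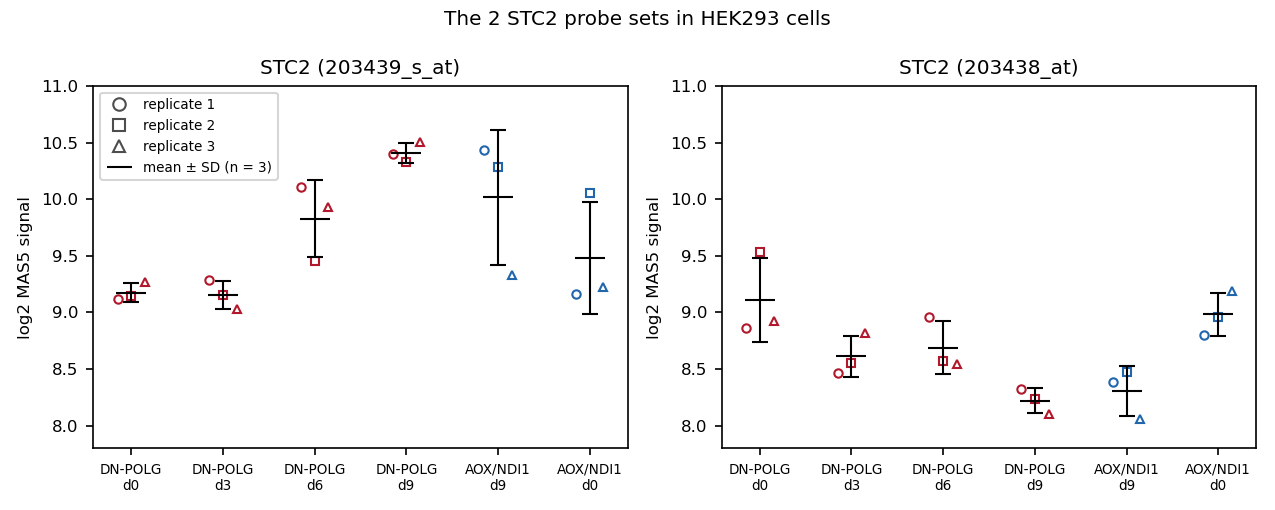
Log2 MAS5 signal (vertical axes, not starting at 0) of the 2 STC2 probe sets in the 6 HEK293 groups, with 1 symbol per array and the mean ± SD of 3 arrays. On 203439_s_at the DN-POLG day 9 arrays lie above the other DN-POLG days, and on 203438_at they lie below them.

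In AOX/NDI1 cells 203439_s_at read 1380.3, 1244 and 646 at day 9 and 574, 1061 and 597 at day 0, with overlap, and a log2 difference of 0.54 ± 0.29 (limma adjusted p = 0.252). On 203438_at the signals were 335, 357 and 266 at day 9 and 447, 498 and 582 at day 0, without overlap, at a log2 difference of -0.68 ± 0.22 and an adjusted p of 0.0536. This value passed in 6 of 11 alternative settings (adjusted p of 0.00123 to 0.142 over the 11), among them the fit with only the 6 arrays compared (0.0241). It passed in 0 of 6 limma fits that left out 1 of the compared arrays (0.0697 to 0.211). The day 9 response of AOX/NDI1 minus that of DN-POLG was -0.70 on 203439_s_at (95% interval -1.56 to 0.16) and 0.21 on 203438_at (-0.44 to 0.86), with a limma adjusted p of 0.999 for each. Neither probe set separated AOX/NDI1 from DN-POLG cells at day 9 or at day 0.

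The 143B arrays split by replicate in STC2. On 203438_at rho0 cells gave 5080.2, 4917 and 1299 and rho+ cells 1536, 1616 and 4572, so replicate 3 was the low array among rho0 and the high one among rho+. The same array of each group was the lowest rho0 and the highest rho+ one on 203439_s_at, at 3602, 3946 and 1761 in rho0 and 1489, 674 and 1782 in rho+. The log2 difference was 0.51 ± 0.61 on 203438_at (limma adjusted p = 0.632) and 1.27 ± 0.45 on 203439_s_at (0.116), and 203439_s_at passed without replicate 3 of rho0 (1.64, adjusted p = 0.0272).

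STC1 was far above background in 143B cells, and its transcript was lower in rho0 than in rho+ cells on each of 3 probe sets, past the threshold on 2. On 204595_s_at the signals were 402, 518 and 609 in rho0 and 5228, 5237 and 1092 in rho+, and on 204596_s_at they were 921, 846 and 864 in rho0 and 6258, 6174 and 1551 in rho+. On 204597_x_at rho0 cells gave 7070.0, 8498 and 7724 and rho+ cells 21189, 18784 and 11131. No rho0 array reached a rho+ array on any of the 3, and replicate 3 of rho+ was the lowest rho+ array on each. The log2 difference was -2.63 ± 0.58 on 204595_s_at (limma adjusted p = 0.0338, 6.17-fold lower), -2.16 ± 0.51 on 204596_s_at (0.0422, 4.46-fold lower) and -1.09 ± 0.30 on 204597_x_at (0.0617, 2.12-fold lower).

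The size of the STC1 difference differed between probe sets and with 1 array. Without replicate 3 of rho+ the log2 differences were -3.38, -2.83 and -1.37, and without replicate 3 of rho0 all 3 passed (204597_x_at at an adjusted p of 0.0424). Calls on both 204595_s_at and 204596_s_at were lost without replicate 1 or 2 of either group (0.0908 to 0.152), with no signal filter (0.123 and 0.138) and in the unmoderated test named in the methods (0.168 and 0.181). The ACTB 3′ to 5′ ratio was lower in rho0 than in rho+ arrays, as given above. Its part in the STC1 difference, or in any other difference between rho0 and rho+ cells given here, was not tested.

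In HEK293 cells 204595_s_at, at 24.8 to 137 over 18 arrays, was the only STC1 probe set over the signal filter, and 16 of these arrays were near background. It read 55.7, 24.8 and 85.7 at day 9 and 58.0, 65.4 and 53.7 at day 0 of DN-POLG, and 53.0, 29.4 and 105 at day 9 and 60.6, 91.4 and 137 at day 0 of AOX/NDI1. Its log2 difference was -0.26 ± 0.50 at day 9 of DN-POLG (limma adjusted p = 0.837) and -0.74 ± 0.50 at day 9 of AOX/NDI1 (0.381), with overlap in both. The other STC1 probe sets read 1.92 to 73.5 there, all near background. In the order of group means on all 3 probe sets rho+ came first and rho0 second, each apart from the next, and the 6 HEK293 groups overlapped from neighbour to neighbour.

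**Figure D3:**
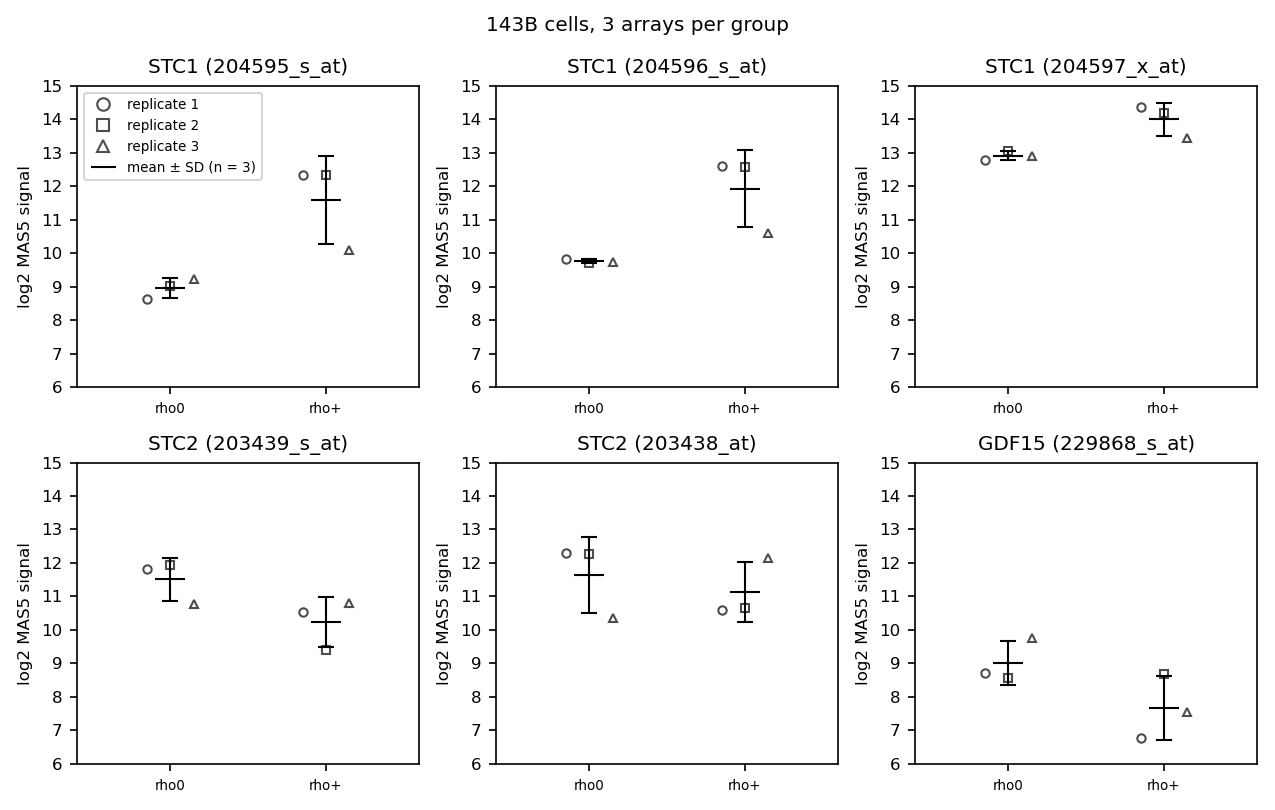
Log2 MAS5 signal (vertical axes, not starting at 0) of the STC1, STC2 and GDF15 probe sets in rho0 and rho+ 143B cells, with 1 symbol per array and the mean ± SD of 3 arrays. STC1 is lower in all rho0 arrays than in all rho+ arrays on its 3 probe sets, and replicate 3 (triangles) is low in rho0 and high in rho+ on the STC2 probe sets.

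Counted by gene, 2 of the 3 members tested in HEK293 cells, GDF15 and STC2, were called at day 9 of DN-POLG (limma adjusted p under 0.05 on at least 1 probe set), beside 13.1% of all genes tested. At an unadjusted p under 0.05 it was 2 members, beside 3659 of 12104 genes. At day 3 0 of 3 were called, beside 0% of all genes, with 1 member and 594 genes at an unadjusted p under 0.05. At day 6 it was 0 of 3, beside 2.45%, with 2 members and 2997 genes at an unadjusted p under 0.05. From day 3 to day 6 it was 0 of 3, beside 4.35% (unadjusted, 1 member and 3296 genes), and from day 6 to day 9 it was 0 of 3, beside 0.554% (unadjusted, 1 member and 2378 genes). In AOX/NDI1 cells 0 of 3 were called at day 9 against day 0, beside 18.1% of all genes, with GDF15 and STC2 and 4499 genes in all at an unadjusted p under 0.05. Between AOX/NDI1 and DN-POLG cells 0 of 3 were called at day 9 and at day 0, beside 0.00826% of all genes each time, with 0 members at an unadjusted p under 0.05, beside 856 genes at day 9 and 1000 genes at day 0. For the difference of the day 9 responses it was 0 of 3, beside 0%, with 0 members and 742 genes at an unadjusted p under 0.05. In rho0 against rho+ cells 1 of 3, STC1, was called, beside 11.4%, while all 3 members and 4268 of 11433 genes had an unadjusted p under 0.05. The unmoderated test of the methods gave the same counts apart from 1, STC2, at day 9 of AOX/NDI1 and 0 in 143B. Over all genes the unmoderated test also called 0 at day 3 and 0 for the difference of responses.

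**Figure D4:**
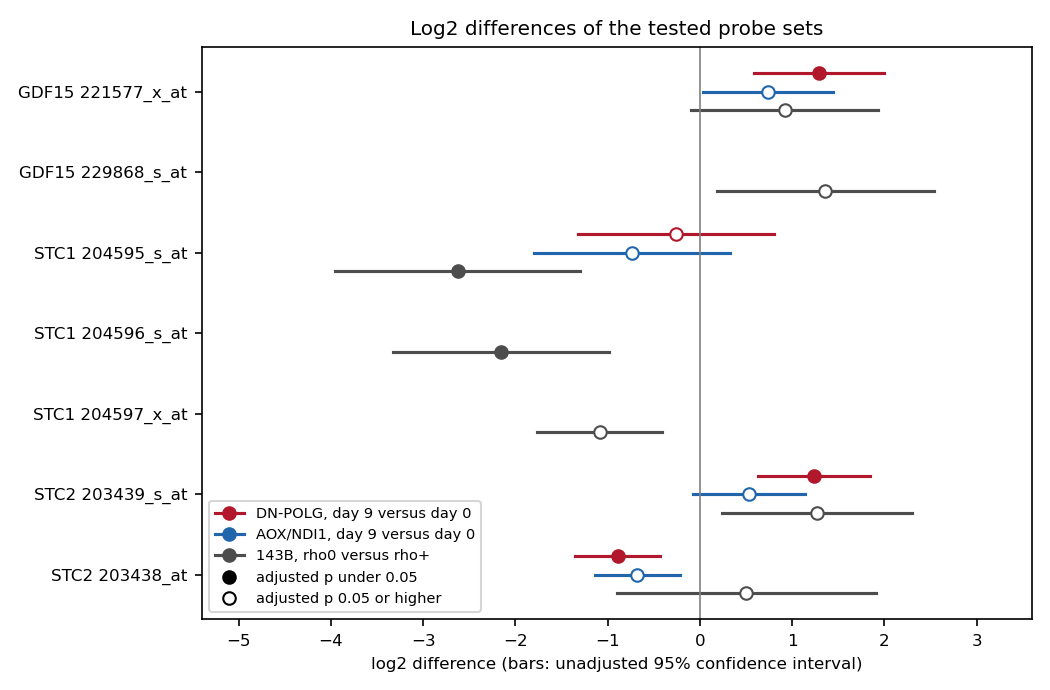
Log2 difference (horizontal axis) of each tested probe set of GDF15, STC1 and STC2 (rows), with its unadjusted 95% confidence interval, for day 9 against day 0 in DN-POLG cells (red) and AOX/NDI1 cells (blue) and for rho0 against rho+ in 143B cells (grey). Filled circles passed the limma threshold: GDF15 221577_x_at and both STC2 probe sets in DN-POLG cells, and 2 STC1 probe sets in 143B cells.

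The proteins that the 4 factors act through were listed next. Of the GDF15 partners, 3 of 4 listed genes had a probe set with 1 symbol, and 0 were called at day 9 against day 0 in either HEK293 line or in rho0 against rho+, beside 13.1% of all genes at day 9 of DN-POLG, 18.1% at day 9 of AOX/NDI1 and 11.4% in rho0. FURIN, a protease that cuts secreted precursors, averaged 159 ± 18.7 at day 9 and 71.8 ± 62.1 at day 0 of DN-POLG (SD, n = 3 each; limma adjusted p = 0.398, with 2 of 3 day 0 arrays near background). The co-receptor RET averaged 132 ± 28.7 at day 9 and 90.6 ± 69.6 at day 0 in these groups (0.496).

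Of the FGF21 partners KLB was near background in 22 of 24 arrays and its relative KL in all 24. In HEK293 cells 4 of 9 listed genes were tested, and FGFR2 alone was called, lower on 1 of its 3 probe sets at day 9 of DN-POLG (log2 differences -1.17 to 0.26) and on 2 of 3 at day 9 of AOX/NDI1 (-1.24 to -0.73). These are 1 of 4 genes each, beside 13.1% and 18.1% of all genes. On 203638_s_at it averaged 289 ± 36.3 at day 9 and 671 ± 225 at day 0 of DN-POLG (log2 difference -1.17, limma adjusted p = 0.0232) and 323 ± 99.4 at day 9 and 739.6 ± 119 at day 0 of AOX/NDI1 (-1.24, 0.0136). In 143B cells 6 of 9 were tested, and FAP, a protease known to inactivate FGF21, was the only one called, beside 11.4% of all genes. It averaged 261 ± 108 in rho0 and 51.9 ± 6.95 in rho+ (adjusted p = 0.0119), and 2 of the 3 rho+ arrays were near background, so the size of the difference is uncertain. The median log2 difference over the 15 probe sets of this list in 143B was 0.59, beside -0.05 over all tested. FGFR1, with 6 of these probe sets, and FGFR2, with 5, weigh most in this median, and 0 of theirs were called. The other way went KLB (-1.09) and the lowest FGFR1 probe set (-0.38).

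Among the stanniocalcin partners PAPPA, which encodes the protease PAPP-A, rose in rho0 cells, where STC1 was lower. PAPPA was called higher on 5 of its 8 tested probe sets, whose log2 differences were 1.07 to 2.19. On 1559400_s_at it averaged 3006 ± 988 in rho0 and 656 ± 199 in rho+ (limma adjusted p = 0.0116). IGF1R, the receptor of the released growth factors, fell on 1 of its 4 probe sets (243358_at, 175 ± 48.8 in rho0 and 383 ± 56.5 in rho+, adjusted p = 0.0464). IGFBP4, the classical PAPP-A substrate, had a log2 difference of 0.62 (adjusted p = 0.313), and IGFBP5 had log2 differences of 1.11 to 1.98 on 6 probe sets with 0 called. With 5 of 6 listed genes tested in 143B cells, 1 rose and 1 fell, beside 11.4% of all genes called, and the median over 21 probe sets was 1.41, beside -0.05 over all tested. PAPPA, with 8 of these probe sets, and IGFBP5, with 6, weigh most in this median. The other way went PAPPA2, at -1.86 to -1.07 on 2 probe sets with 0 called, and IGF1R, at -1.16 to -0.25 on 4. In HEK293 cells 3 of 6 were tested, and PAPPA was not among them. IGF1R alone was called at day 9 of AOX/NDI1, lower on 1 of its 3 probe sets (log2 differences -0.97 to 0.56), beside 18.1% of all genes. On 225330_at it averaged 563 ± 45.9 at day 9 and 1104 ± 91.5 at day 0 (limma adjusted p = 0.0107). At day 9 of DN-POLG its 3 probe sets had log2 differences of -0.68 to 0.44, with 0 called.

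Of the transcription factors tied to the members, listed with their regulator TRIB3, 19 of 20 genes were tested in HEK293 cells. At day 9 of DN-POLG 4 rose and 2 fell, beside 13.1% of all genes called. The 4 belong to the integrated stress response or are known to be induced by it, but the list was chosen to hold several such genes. Others of this kind on the list were not called: TRIB3 (log2 differences 0.42 to 0.49), ATF5 (-0.16) and CEBPB (0.19). NUPR1 averaged 639 ± 126 at day 9 and 68.0 ± 39.4 at day 0 (limma adjusted p = 0.000816), with 2 of the 3 day 0 arrays near background. The log2 difference was 1.03 for CEBPG (204203_at, 1 of 2 probe sets called, adjusted p = 0.0106), 1.14 for DDIT3, which encodes CHOP (0.0334), and 2.25 for ATF3 on 1554420_at, 1 of its 3 probe sets (0.0414). ATF4 itself, known to be controlled mostly in translation, had a log2 difference of 0.52 (adjusted p = 0.278). EGR1, an immediate early gene, fell on 2 of 3 probe sets (201694_s_at, log2 difference -3.93, adjusted p = 0.00838), as did PPARA, a known driver of FGF21 in liver, on 2 of 6 (log2 differences -3.74 to 0.77). PPARA read near background in all 3 day 9 arrays of 223437_at (70.7 ± 16.2 at day 9 and 260.4 ± 19.5 at day 0, adjusted p = 0.000188). At day 6 NUPR1 alone was called, beside 2.45% of all genes.

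At day 9 of AOX/NDI1 1 of these factors rose, ATF3 (log2 difference 2.82, limma adjusted p = 0.00969), and 3 fell, PPARA on 3 of 6 probe sets (log2 differences -3.60 to 0.89), JUN on 2 of 4 (-1.49 to 0.30) and CEBPB, beside 18.1% of all genes called. NUPR1 had a log2 difference of 1.16 there (adjusted p = 0.151). DDIT3 had 0.74 and CEBPG 0.24 to 0.48, with 0 called. For the difference of the day 9 responses 0 of the 19 genes tested were called, beside 0% of all genes. In rho0 cells NUPR1 rose (238 ± 85.5 in rho0 and 52.3 in rho+, where 2 of 3 arrays were near background, adjusted p = 0.0111), and 3 of the 18 tested fell, beside 11.4% of all genes called. These were HIF1A, the hypoxia factor (-1.24, 0.0329), TRIB3, an inhibitor of ATF4 that ATF4 induces (-1.19, 0.0330), and PPARA on 1 of 3 probe sets, near background in 2 of 3 rho0 arrays. The list's median log2 difference was 0.22 at day 9 of DN-POLG, 0.09 at day 9 of AOX/NDI1 and -0.38 in rho0 cells, beside 0.01, -0.04 and -0.05 over all tested.

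The relay that carries mitochondrial stress to eIF2alpha was tested in full, with all 9 genes. At day 9 of DN-POLG 2 rose, beside 13.1% of all genes called: EIF2AK4, which encodes the amino acid sensor GCN2 (237145_at, 871 ± 92.5 at day 9 and 152 ± 71.9 at day 0, limma adjusted p = 0.000188), and DELE1, the messenger that leaves stressed mitochondria (201977_s_at, 437 ± 73.6 at day 9 and 245 ± 107 at day 0, 0.0494). A second probe set of each had log2 differences of -0.22 for EIF2AK4 and -0.03 for DELE1. At day 9 of AOX/NDI1 2 rose, beside 18.1%: EIF2AK4 and PPP1R15A, the phosphatase subunit that ends the response (202014_at, 1406 ± 322 at day 9 and 275 ± 90.9 at day 0, adjusted p = 0.00948). In rho0 cells 0 of 9 were called, beside 11.4%.

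Of 15 other secreted stress factors, 8 were tested in HEK293 and 11 in 143B cells. At day 9 of DN-POLG 2 of 8 were called, beside 13.1% of all genes. VEGFA, the angiogenic factor, rose on 1 of 4 probe sets (210513_s_at, 454 ± 65.1 at day 9 and 254 ± 65.7 at day 0, limma adjusted p = 0.0286), and MANF, a factor of the endoplasmic reticulum, fell (2186 ± 155 at day 9 and 3414 ± 438 at day 0, 0.0386). At day 9 of AOX/NDI1 0 of 8 were called, beside 18.1%. MANF had a log2 difference of -0.53 in AOX/NDI1, beside -0.64 in DN-POLG. VEGFA had -1.04 to 0.13 on 4 probe sets in AOX/NDI1, beside -0.02 to 0.87 in DN-POLG. Between the lines at day 9 0 of 8 were called, beside 0.00826% of all genes. For the difference of the day 9 responses it was also 0 of 8, beside 0%. In rho0 cells 4 of 11 fell and 0 rose, beside 11.4% of all genes called: CXCL8, a chemokine (202859_x_at, log2 difference -4.05, adjusted p = 0.00501), LIF (-3.78, 0.00335), CCL2 and VEGFA, with 1 of 3 rho0 arrays near background for LIF and 1 of 3 for CCL2. The list's median log2 difference in 143B was -0.74.

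The genes whose pattern over the 18 HEK293 arrays was most like that of GDF15, by Pearson's r of log2 signal among 12082 genes, were BCAT1 (0.854), CRIPT (0.834), MSANTD3 (0.806), MTHFD2 (0.804) and CRYAB (0.796). MTHFD2, a mitochondrial enzyme of folate metabolism, averaged 9344 ± 1011 at day 0, 10147 ± 537 at day 3, 12163 ± 348 at day 6 and 15746 ± 1529 at day 9 of DN-POLG (SD, n = 3 each). The genes most like STC2 on 203439_s_at were COXFA4 (0.872), FRY (0.865), FAM219B (0.864), H2BC9 (0.857) and NRP1 (0.855). For STC1, near background in most of these arrays, the highest value was 0.758 (ENOX1). These values describe arrays that share 6 groups, so they mix differences between groups with those within them.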

How the data were processed

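The deposited values are MAS5 signal intensities on a linear scale, which the authors made in Affymetrix Expression Console from HG-U133 Plus 2.0 arrays; the scaling target is not given in the sources used here. Log2 was taken with nothing added and no further normalization. Of 54675 probe sets, 41097 carry 1 gene symbol (6 of them control probe sets, not used), 1801 several and 11777 none; 41043 matched RefSeq through their Entrez ID. Tested were probe sets with 1 symbol and a mean log2 signal at or above the median in that line (signal 57.2 in HEK293, 83.3 in 143B): 23132 and 22786 probe sets, among them 4 and 7 of the 9 member probe sets (3 genes each). limma 3.58.1 in R 4.3.3 fitted the 18 HEK293 arrays in 1 model of 6 group means and the 6 143B arrays in another, with Benjamini-Hochberg adjustment and a threshold of 0.05. The fit was tested on simulated data. Differences run as tested minus uninduced, earlier, DN-POLG or rho+ cells. A gene's main probe set has the highest mean log2 signal over 24 arrays. From each list the text names up to 4 genes per comparison with the smallest p among those that passed, and those with a direct tie to a member as receptor or transcription factor. The 4 genes and all lists were chosen with earlier results of these data known. Same-numbered arrays deviated together between day 3 and day 0 (r of 0.323 to 0.506) and between day 6 and day 0 of DN-POLG (0.165 to 0.205), where the methods describe rounds from 1 starter culture. The series' design text calls them independent biological replicates; 3 per group limit the precision. Alternatives were quantile normalization, 1 median for all arrays, no filter, a stricter filter (60th percentile), 16 added before log2, averaged probe sets, no _x_at or _s_at probe sets, array weights, unmoderated ANOVA, a replicate block, fewer arrays and leaving out each array. Promoters came from RefSeq. List genes with a probe set of several symbols or none are not analysed here.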

Additional observations from a re-analysis of the deposited data

How the results depend on the processing

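None of the 15 log2 differences of member probe sets with an unadjusted p under 0.05 changed sign under any alternative run. The number of members called at day 9 of DN-POLG, 2 in the fit as reported, was 1 with no signal filter, with probe sets of a gene averaged, without _x_at and _s_at probe sets (which leaves GDF15 untested) and with only the arrays compared, and it was 1 to 2 on leaving out 1 array (1 without each of 5 of the 6). At day 6 it was 1 in place of 0 with array weights (GDF15). At day 9 of AOX/NDI1 it was 1 in place of 0 with the stricter filter, without _x_at and _s_at probe sets, in the unmoderated ANOVA and without the array DN-POLG day 6 replicate 1, and 2 with array weights or only the arrays compared. In 143B cells, where 1 was called, it was 0 with no signal filter, in the ANOVA and without replicate 1 or 2 of either group, and 2 with array weights. It was also 0 without _x_at and _s_at probe sets, but that setting leaves STC1, the gene called, untested. The range on leaving out 1 array was 0 to 2 (2 without replicate 3 of rho0). The cause of these shifts was not tested. With the replicate block the count was 1 at day 9 of DN-POLG (STC2 on 203439_s_at, while STC2 203438_at and GDF15 had adjusted p-values of 0.0554 and 0.0580) and 0 in 143B cells (STC1 at 0.0613 and 0.0584). Same-numbered arrays correlated at -0.320 to 0.0399 between day 9 and day 0 of DN-POLG, where a replicate is described as 1 culture round, and at -0.178 to 0.0745 in 143B cells, where they share only a number. The paired fit changed no other call of a member. Setting all arrays to 1 median moved the median of all probe sets by 0.31 in 143B and by 0.14 at day 9 of AOX/NDI1, and of 84 calls of list probe sets 80 still passed with quantile normalization, 68 with 1 median and 56 in the ANOVA, with 0 changes of sign. Over all genes the number called in 143B cells was 89 in the ANOVA, 376 with no signal filter and 556 with the replicate block, beside 1304. At day 6 of DN-POLG it was 173 with quantile normalization, 119 with 1 median, 32 with no filter and 42 with the block, beside 297, and at day 9 it was 990 with no filter, beside 1591. From day 3 to day 6 it was 118 with no filter, 224 with 1 median and 263 with the block, beside 527, and from day 6 to day 9 it was 16 and 43 with no filter and the block, beside 67. With no filter 13 genes were called between AOX/NDI1 and DN-POLG cells at day 9, beside 1, 2 at day 0, beside 1, and 4 for the difference of responses, beside 0. Of the genes called in 1 direction in 143B cells 70.2% were higher with 1 median, 46.0% with quantile normalization and 32.1% as reported. Near-background signals have no reliable order, which limits FGF21 in all groups and STC1 in HEK293 cells.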
